A study of Homo sapiens with 6 samples.

Results

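Heat shock proteins and chaperonins are the folding machines of the cytosol and the mitochondrial matrix, and 38 genes that encode them, their partners and the heat shock factors were followed here in Huh7SR hepatocellular carcinoma cells treated with fostamatinib. After 24 h of drug, 27 of the 38 genes (71.1%) were lower than in DMSO, 5 (13.2%) were higher and 6 did not pass the test. Over all genes tested, 24.5% were lower and 23.3% higher. All 4 mitochondrial chaperones and all 8 subunits of the cytosolic chaperonin fell, whereas 5 HSF1-inducible genes, among them the stress-inducible HSP70 genes HSPA1A and HSPA1B, rose by small amounts. None of the 38 changed by more than 2-fold.

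The genes were chosen by symbol from 16305 genes in the expression tables, and all 38 were present in all 6 samples. They were sorted by general knowledge of their regulation and site into 14 HSF1-inducible genes, 10 constitutive cytosolic genes, 8 chaperonin subunits, 4 mitochondrial chaperones and the 2 factors HSF1 and HSF2. The rule used no measured value, although earlier results of these data were known when the lists were drawn up.

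HSP70 chaperones bind exposed hydrophobic stretches of unfolded proteins and release them in cycles of ATP hydrolysis that J-domain proteins start and nucleotide exchange factors, including the HSP110 and BAG proteins, reset. HSP90 receives part of these clients through adaptor co-chaperones and matures kinases and steroid receptors, while the chaperonin ring encloses actin, tubulin and other proteins. When unfolded proteins accumulate, HSF1 forms trimers and binds heat shock elements, which drives the inducible genes, and the mitochondrion keeps its own HSP70, HSP90 and HSP60 with HSP10.

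Huh7SR is a pool of the Huh7 hepatocellular carcinoma line made resistant to sorafenib by long culture with that drug, and all 6 samples came from it, so no parental cells are compared here. By the study's methods, the resistant cells were grown with sorafenib, which was withdrawn for some days before the experiments. The treated group received 2 µM fostamatinib, a prodrug of a tyrosine kinase inhibitor, for 24 h (n = 3), and the control group received DMSO, the vehicle, for the same time (n = 3), with the label giving 2 µM for DMSO as well. The comparison asks which transcripts differ between drug and vehicle in the resistant cells. The labels do not say whether the triplicates were separate cultures, so the p-values measure only the spread between these samples, which may be technical.

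Poly(A)-selected RNA was sequenced, with 13303451 to 15272737 reads on listed genes per sample. Pearson correlations across genes between samples were 0.988 to 0.989 within groups and 0.970 to 0.972 between them. All 8 hepatocyte markers checked were present, with a summed level of 4136 to 4407 CPM (reads scaled by the size of the library) in DMSO and 5320 to 5664 in fostamatinib. All 8 were higher with drug, by log2 fold changes of 0.21 for APOB to 3.19 for APOA1. Of 4 fibroblast, 3 leukocyte and 3 endothelial markers, 3, 1 and 1 were listed, with summed levels of 148 to 153, 9.34 to 10.8 and 6.13 to 6.96 CPM in DMSO and of 191 to 198, 9.34 to 11.2 and 8.76 to 9.93 CPM in fostamatinib. DCN, PTPRC, CD74, VWF and CDH5 were not listed, and the part of these shifts in the results below was not tested.

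Because the question of HSF1 control runs through the list, the promoters were read for heat shock elements, and the stretches that carry them are shown here for the members discussed below. RefSeq promoter windows on GRCh38.p14, from 250 bases before to 50 after each transcription start, were present for 34 members. The motif searched was GAANNTTCNNGAA, or its reverse complement TTCNNGAANNTTC, where overlapping matches can share units. An exact match lay in a window of 7 of the 34 members (20.6%) and of 166 of 27305 genes in the whole table (0.608%). The 7 were HSP90AA1, DNAJA1 and CHORDC1 of the inducible class, HSPA8, HSP90AB1 and DNAJB6 of the constitutive class, and HSPD1 of the mitochondrial class, with none among the 7 chaperonin genes in the table. With up to 1 mismatch among its 9 fixed bases, a setting chosen after the exact matches had been seen, the motif was in 18 of 34 members and in 7.6% of all genes, and these 18 held 11 of the 14 inducible genes, 4 of 8 constitutive genes, 1 of 7 chaperonin genes and 2 of 4 mitochondrial genes. The inducible genes without a match were HSPH1, HSPB8 and BAG3. A match is a stretch of letters and not a measured binding site.

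In the sequences below, read 5′ to 3′ on the strand of the gene, capitals mark the bases that match the fixed letters of the motif. The first lies 80 to 18 bases before the start of CHORDC1 (chr11:90223067-90223129, minus strand) and holds 3 overlapping matches, the next 75 to 23 bases before that of HSPA8 (chr11:123062159-123062211, minus strand), and the next 132 to 80 bases before that of HSP90AB1 (chr6:44247811-44247863, plus strand). That of HSP90AA1 lies 108 to 56 bases before the start (chr14:102087100-102087152, minus strand) and that of DNAJB6 151 to 99 bases before it (chr7:157336853-157336905, plus strand). A further exact match begins 230 bases before the start of HSPA8 and 165 bases before that of HSP90AB1. The exact match of DNAJA1 lies after its start, and these matches are not printed. The HSPA1A (chr6:31815417-31815469, plus strand) and HSPA1B (chr6:31827613-31827665, plus strand) stretches, 126 to 74 and 125 to 73 bases before the start, match at all but 1 of the 9 fixed bases. They are shown because these genes are the classical targets of HSF1 and are nearly the same sequence, with 92.6% identity between their promoter windows aligned without gaps.
CHORDC1: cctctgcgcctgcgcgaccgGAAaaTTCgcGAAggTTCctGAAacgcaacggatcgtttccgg
HSPA8: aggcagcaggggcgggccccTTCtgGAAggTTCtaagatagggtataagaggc
HSP90AB1: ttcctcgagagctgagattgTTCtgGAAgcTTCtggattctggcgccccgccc
HSP90AA1: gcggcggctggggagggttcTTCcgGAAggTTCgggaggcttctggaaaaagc
DNAJB6: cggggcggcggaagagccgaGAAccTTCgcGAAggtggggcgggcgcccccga
HSPA1A: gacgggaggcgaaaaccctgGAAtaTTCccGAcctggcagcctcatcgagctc
HSPA1B: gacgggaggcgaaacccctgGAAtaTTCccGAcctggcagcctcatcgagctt

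Taking all 38 genes together, the list held 1.49% ± 0.01 (SD, n = 3) of the reads in DMSO and 1.24% ± 0.02 (n = 3) in fostamatinib, and the lowest DMSO sample (1.48%) lay above the highest treated sample (1.26%). In bulk RNA, fewer cells that express a gene and less RNA per cell cannot be told apart. The median log2 fold change was -0.29 over the 38 genes, against 0.00 over all 16305 genes (quartiles -0.27 and 0.27) and -0.02 over the 8724 genes that averaged 200 reads or more, as every member did.

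Fostamatinib changed a large part of the transcriptome, and the members' counts have to be read against that. By limma with an adjusted p threshold of 0.05, 47.8% of all genes were called, 23.3% as higher and 24.5% as lower. Among the genes averaging 200 reads or more, a cut-off chosen after the members' depth was seen, 29.3% were higher and 33.8% lower. Of the 38 members, 32 were called (84.2%), 27 of them lower (71.1%) and 5 higher (13.2%). The 3 treated and 3 control values did not overlap for 31 members, 27 lower and 4 higher, against 54.1% of all genes in either direction. When limma's treat was used to ask for a change larger than 1.2-fold, 14 members passed, all of them lower, against 18.3% of all genes. The histogram of all genes shows how far the classes lie from its centre.

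**Figure D1:**
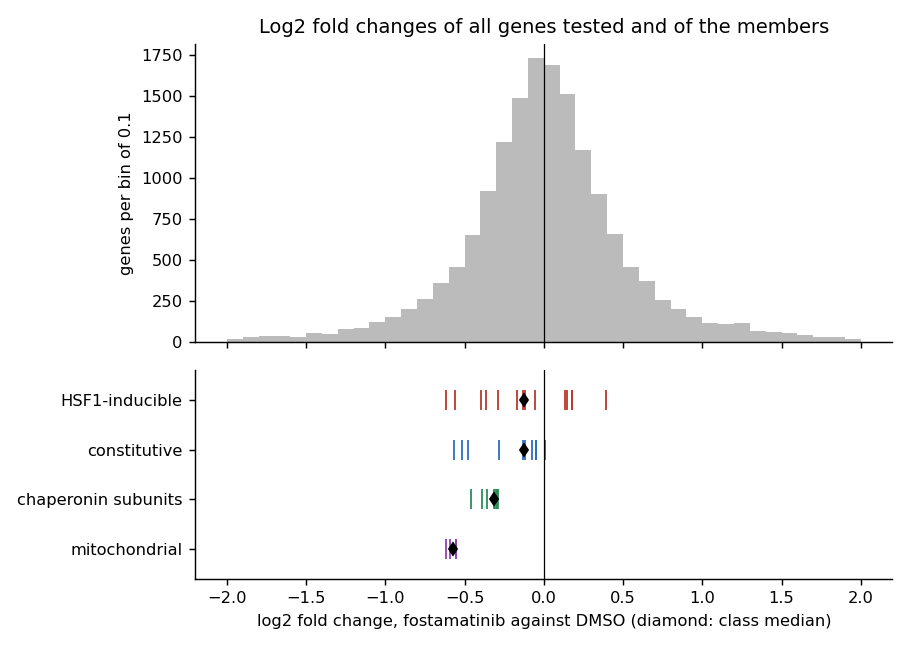
Top, number of genes (y axis) in bins of 0.1 of the log2 fold change of fostamatinib against DMSO (x axis) for the 16305 genes tested, of which 252 beyond ±2 are not drawn. Below it, the fold changes of the members by class (ticks) with class medians (diamonds) are shown. All mitochondrial ticks lie between -0.62 and -0.55, and the HSF1-inducible ticks spread from -0.62 to 0.39 on both sides of 0.

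The classes differed in how evenly their members moved. The HSF1-inducible class held 5 genes that rose, 8 that fell and 1 that did not pass, with a median of -0.13. The constitutive class held 6 genes that fell and 4 that did not pass, with a median of -0.12. All 8 chaperonin genes fell, with a median of -0.31, and all 4 mitochondrial genes fell, with a median of -0.57. Past a 1.2-fold change were 4, 3, 3 and 4 genes of these classes, in that order. Of the inducible genes 35.7% rose and 57.1% fell, against 29.3% and 33.8% of the genes averaging 200 reads or more. The inducible share that rose was thus near the background. Of the constitutive genes 60.0% were called, all lower, against the same 33.8% lower and 29.3% higher among such well-covered genes. Only the share called in either direction was near the background (5512 of 8724). These counts and medians are a description of the lists, and the difference between classes carries no test.

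The inducible and constitutive medians were thus almost the same, but they were made up differently, and the first depended on which genes were called inducible. In the narrower core of 8 textbook HSF1 targets (HSPA1A, HSPA1B, HSPH1, DNAJB1, HSPB1, BAG3, HSP90AA1 and DNAJA1), 4 genes rose, 3 fell and 1 did not pass, and the median turned to 0.04.

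In every treated sample the mitochondrial median was the lowest and the chaperonin median the next. Relative to the DMSO mean, the class median in fostamatinib replicates 1, 2 and 3 was -0.12, -0.10 and -0.16 on the log2 scale for inducible genes and -0.11, -0.14 and -0.15 for constitutive ones. It was -0.26, -0.32 and -0.38 for the chaperonin and -0.59, -0.55 and -0.58 for the mitochondrial chaperones. The same medians in the 3 DMSO samples stayed between -0.02 and 0.02, and in all 4 classes the groups did not overlap. The DMSO samples were set against their own mean, which in itself holds their medians near 0.

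**Figure D2:**
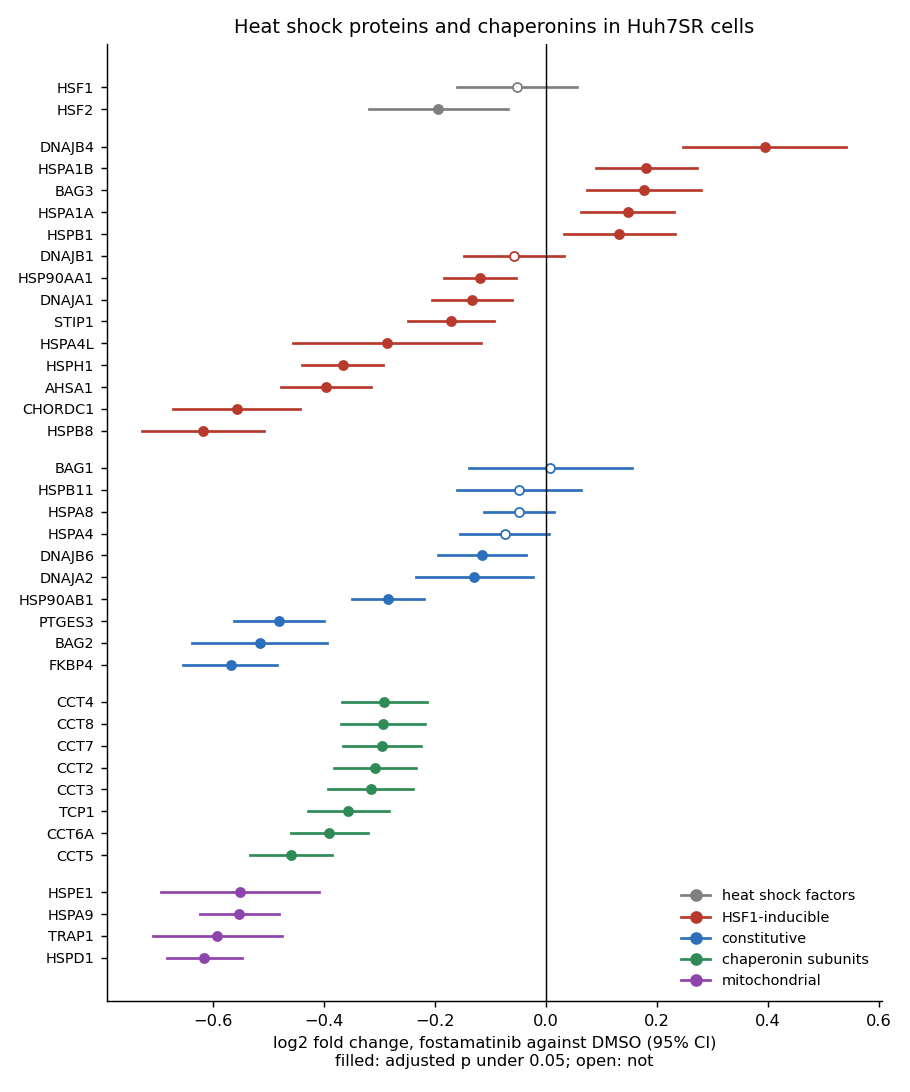
Log2 fold change of fostamatinib against DMSO (x axis, bars giving the 95% confidence interval from limma, n = 3 each) for each of the 38 genes, sorted within classes by colour, with open points for genes that did not pass an adjusted p of 0.05. The 5 rises are all in the HSF1-inducible class, from 0.13 for HSPB1 to 0.39 for DNAJB4, and the 4 mitochondrial genes stand at -0.55 or lower.

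The heat shock factors themselves changed little. HSF1, the master regulator of the inducible genes, had 76.4, 77.2 and 72.0 CPM in the DMSO samples and 68.4, 73.4 and 75.8 CPM in the fostamatinib samples. These values overlapped, and the log2 fold change was -0.05 (95% CI -0.16 to 0.06, limma adjusted p = 0.439). HSF2, a related factor that can form trimers with HSF1, had 45.5, 44.5 and 49.7 CPM in DMSO and 39.9, 39.7 and 42.3 CPM with drug. All 3 treated values were below all 3 controls, and HSF2 fell by 0.19 ± 0.06 (SE, limma adjusted p = 0.0093), a call that was lost without DMSO replicate 3 (log2 fold change -0.15, adjusted p = 0.0516). The activity of HSF1 is set largely by phosphorylation, trimer formation and binding to chaperones, none of which an RNA level records.

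The stress-inducible HSP70 pair sits side by side in the MHC class III region, HSPA1A at chr6:31783320-31785723 and HSPA1B at chr6:31795515-31798031 (GRCh37, plus strand), each with 1 exon. HSPA1A had 200.2, 209 and 193 CPM in DMSO and 228, 219.6 and 219.0 CPM in fostamatinib. HSPA1B had 129.7, 142 and 139 CPM in DMSO and 155, 159 and 150.0 CPM in fostamatinib. For both genes each treated sample was above each control, and the rises were 10.7% for HSPA1A (log2 fold change 0.15 ± 0.04 SE, limma adjusted p = 0.0032) and 13.3% for HSPA1B (0.18 ± 0.04, adjusted p = 0.001). Of the 50-base stretches of the HSPA1A transcript, 75.1% also occur in HSPA1B, so the 2 genes cannot be told apart by most reads and are best read as 1 locus. HSPA1L, the neighbouring testis-type HSP70 gene, had a log2 fold change of 0.07 and did not pass.

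HSPA8, the constitutive cytosolic HSP70 and the most highly expressed member, had 2050, 2027 and 1992 CPM in DMSO and 2017, 1943 and 1906 CPM in fostamatinib. The groups overlapped, with a log2 fold change of -0.05 (95% CI -0.11 to 0.01, limma adjusted p = 0.201). HSPA9, the HSP70 of the mitochondrial matrix, had 548, 556 and 551 CPM in DMSO and 372, 386 and 370 CPM with drug. Here the highest treated value lay far below the lowest control, and the gene fell by 31.8% (log2 fold change -0.55 ± 0.03, adjusted p = 1.41e-15).

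The 3 HSP70 types were also set against each other within each sample, which removes the scaling between libraries. The log2 level of HSPA1A minus that of HSPA8 was -3.33 ± 0.05 (SD, n = 3) in DMSO and -3.14 ± 0.01 in fostamatinib, a shift of 0.20 toward the inducible gene. Against HSPA9, the difference went from -1.46 ± 0.05 to -0.76 ± 0.06, a shift of 0.70. The samples of the groups did not overlap in either ratio, nor in that of HSPA1B to HSPA8, which shifted by 0.23. For each of these, the exact permutation test (two-sided, 3 against 3) gave p = 0.1, the smallest value this design allows, and 0.114 after adjustment over the 8 gene pairs compared.

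**Figure D3:**
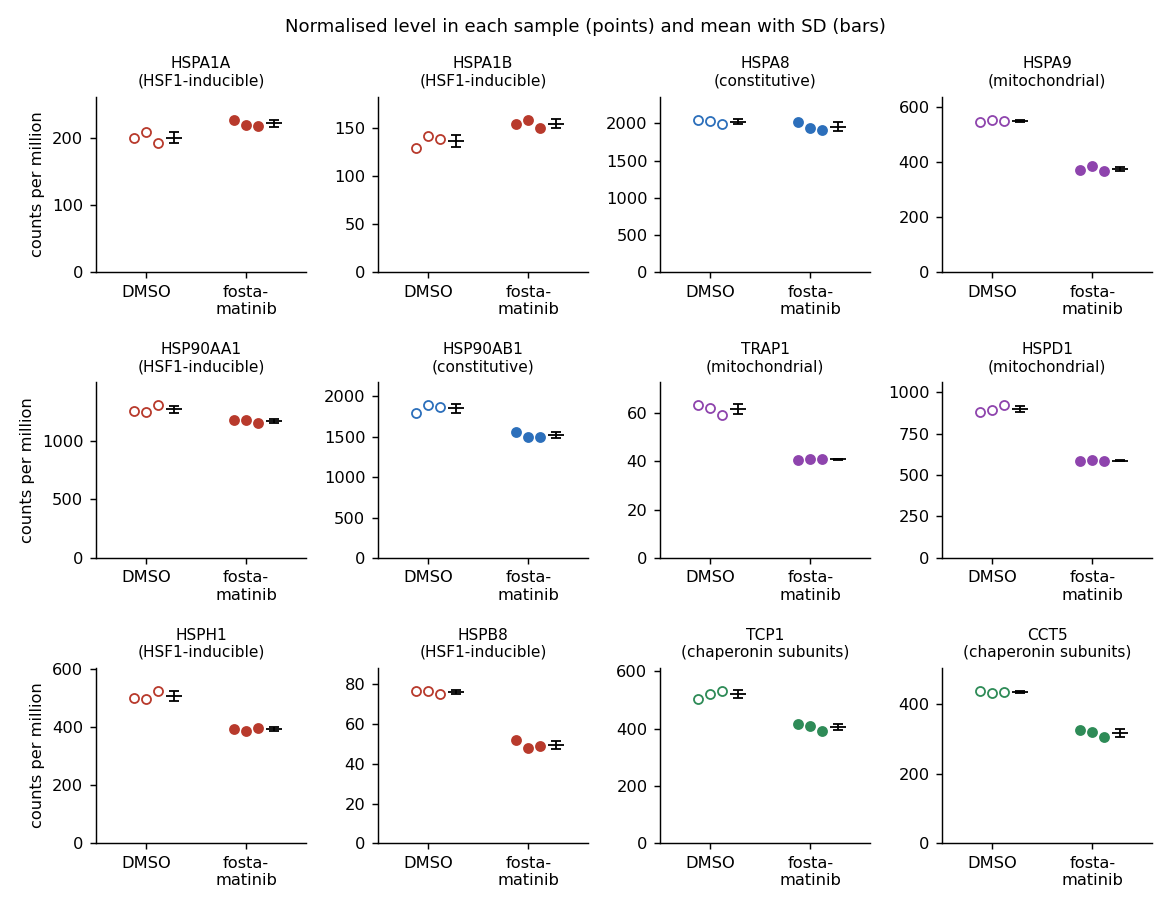
Normalised level in CPM (y axis, from 0) of 12 members in the 3 DMSO samples (open points) and the 3 fostamatinib samples (filled points), with mean and SD beside them. HSPA1A and HSPA1B rise slightly while HSPA8 overlaps, and HSPA9, TRAP1 and HSPD1 are 31.8% to 34.8% lower with no overlap.

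Of the HSP110 genes, which act as nucleotide exchange factors of HSP70, HSPH1 at chr13:31709110-31736525 had 500.0, 495 and 525 CPM in DMSO and 394, 386 and 398 CPM in fostamatinib. It fell by 22.4% with no overlap (log2 fold change -0.37 ± 0.04, limma adjusted p = 1.01e-10). HSPH1 is counted as an HSF1 target like HSPA1A, but held no motif match in its promoter window, also with 1 mismatch. Its constitutive relative HSPA4 ranged from 330 to 345 CPM in DMSO and from 302 to 331 CPM with drug, and did not pass (-0.07, 95% CI -0.15 to 0.01, adjusted p = 0.119). HSPA4L, the least abundant of the 3, fell (-0.29 ± 0.08, adjusted p = 0.0044). Within samples, HSPH1 lay 0.59 ± 0.03 log2 units above HSPA4 in DMSO and 0.30 ± 0.09 in fostamatinib, again without overlap (exact permutation p = 0.1).

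The J-domain proteins, which bring clients to HSP70 and start its ATPase cycle, went in different directions. DNAJB4 showed the largest rise of all members, from 25.0, 27.1 and 30.1 CPM in DMSO to 37.5, 35.7 and 34.6 CPM in fostamatinib. It rose by 31.4% with no overlap (log2 fold change 0.39 ± 0.07, limma adjusted p = 2.29e-05). DNAJB1, the usual partner of the inducible HSP70, had 141, 143 and 134 CPM in DMSO and 136, 137 and 129 CPM in fostamatinib, and these overlapped (-0.06, 95% CI -0.15 to 0.03, adjusted p = 0.296). DNAJA1 fell by 0.13 ± 0.04 on the log2 scale without overlap. DNAJB6, which holds back protein aggregation, fell by 0.12 ± 0.04 (adjusted p = 0.0139), but not past the threshold without fostamatinib replicate 2 (-0.11, adjusted p = 0.0638). The fall of DNAJA2 (-0.13 ± 0.05, adjusted p = 0.039) was lost when any of 5 single samples was left out, all except DMSO replicate 1, and without DMSO replicate 3 the value was -0.09. Within samples, DNAJA1 kept its distance to DNAJA2, with 2.52 log2 units in both groups (exact permutation p = 0.9).

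The BAG proteins bind the ATPase domain of HSP70, and they too split. BAG3, an HSF1 target that links HSP70 to autophagy, had 67.7, 70.8 and 69.5 CPM in DMSO and 80.3, 77.4 and 77.4 CPM with drug. All treated values were higher, and the rise was 12.9% (log2 fold change 0.18 ± 0.05, limma adjusted p = 0.0041). BAG2, which restrains the ubiquitin ligase that works with HSP70, had 56.8 to 64.6 CPM in DMSO and 41.3 to 43.7 CPM with drug and fell by 30.1% (-0.52 ± 0.06, adjusted p = 4.87e-09). BAG1 had 26.3 to 29.9 CPM and 27.7 to 29.7 CPM and did not pass (0.01, 95% CI -0.14 to 0.15, adjusted p = 0.945). Of the BAG2 transcript, 44.2% lies under genes on the opposite strand, among them RAB23, whose log2 fold change was -0.64. The library kit marks strand, but whether the counting used it is not given in the sources used here.

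Small heat shock proteins hold unfolded proteins without ATP. HSPB1, the major small heat shock protein of most cells, had 187.5, 192 and 165.0 CPM in DMSO and 207, 185.5 and 204 CPM in fostamatinib. DMSO replicate 3 was low and fostamatinib replicate 2 lay below 2 of the controls, so the groups overlapped. The rise of 0.13 ± 0.05 (log2, limma adjusted p = 0.0255) was 0.06 without DMSO replicate 3 (adjusted p = 0.241) and was also lost without fostamatinib replicate 1 (0.10, adjusted p = 0.138) or replicate 3 (0.11, adjusted p = 0.125). HSPB8, which works with BAG3, had 76.9, 76.5 and 75.1 CPM in DMSO and 52.1, 48.0 and 48.9 CPM in fostamatinib. It fell by 34.8% (-0.62 ± 0.05, adjusted p = 7.09e-12), while its partner BAG3 rose. This fall and that of HSPD1 (-0.62 ± 0.03) lay at the low end of the list and differed by less than their errors. HSPB11, which carries the family name but is a part of the intraflagellar transport machinery of cilia, had 55.8 to 58.9 and 53.9 to 56.8 CPM and did not pass (-0.05, 95% CI -0.16 to 0.06, adjusted p = 0.498).

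Both cytosolic HSP90 genes fell, the constitutive one by more. HSP90AA1, the inducible form, had 1256, 1241 and 1302 CPM in DMSO and 1172, 1179 and 1147 CPM in fostamatinib. HSP90AB1, the constitutive form, had 1792, 1893 and 1868 CPM in DMSO and 1561, 1498 and 1496 CPM in fostamatinib. TRAP1, the mitochondrial HSP90, had 63.3, 62.0 and 59.4 CPM in DMSO and 40.6, 40.9 and 41.0 CPM in fostamatinib. None of the 3 overlapped between groups, and the falls were 7.9% for HSP90AA1 (log2 fold change -0.12 ± 0.03, limma adjusted p = 0.0022), 18.0% for HSP90AB1 (-0.29 ± 0.03, adjusted p = 2.57e-09) and 33.7% for TRAP1 (-0.59 ± 0.06, adjusted p = 6.88e-11).

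Within samples, the log2 level of HSP90AA1 minus that of HSP90AB1 was -0.55 ± 0.05 in DMSO and -0.38 ± 0.03 in fostamatinib, and HSP90AA1 minus TRAP1 was 4.36 ± 0.08 and 4.84 ± 0.03. Neither ratio overlapped between the groups, with shifts of 0.17 and 0.47 toward HSP90AA1 and the smallest possible exact permutation p of 0.1 for each. As with HSP70, the inducible form was higher relative to the constitutive form with drug, but here both forms had fallen. The other families compared did not show this. Relative to HSPA4, HSPH1 shifted by -0.29 and HSPA4L by -0.21, both without overlap, and DNAJA1 relative to DNAJA2 by -0.004. Upstream of their starts HSP90AA1 and HSP90AB1 carry the exact motif shown above, as does HSPA8, so an exact match was not limited to the inducible form. TRAP1 has 43.9% of its transcript under opposite-strand genes, including DNASE1, which rose by 0.57.

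The HSP90 co-chaperones among the members all fell, in both the inducible and the constitutive class. FKBP4, an immunophilin of steroid receptor complexes, had 237, 230.5 and 221 CPM in DMSO and 159, 155 and 150.4 CPM with drug, and fell by 32.6% (log2 fold change -0.57 ± 0.04, limma adjusted p = 7.43e-14). CHORDC1, whose promoter holds 3 overlapping exact motifs, had 78.0, 72.0 and 80.7 CPM in DMSO and 49.5, 53.4 and 53.8 CPM with drug. It fell by 32.1% (-0.56 ± 0.06, adjusted p = 2.18e-10), and its fall lay within the error of those of FKBP4 and HSPA9. PTGES3, which closes the HSP90 cycle as p23, fell by 28.4% (-0.48 ± 0.04), and AHSA1, which speeds its ATPase, by 24.0% (-0.40 ± 0.04). STIP1, the adaptor between HSP70 and HSP90, fell by 11.2% (-0.17 ± 0.04, adjusted p = 0.00027). None of these 5 genes overlapped between the groups.

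The cytosolic chaperonin, also called TRiC or CCT, is a double ring made of 8 different subunits in equal numbers, and its 8 genes lie on different chromosomes or far apart. TCP1, the alpha subunit at chr6:160199530-160210735, had 504, 522 and 533 CPM in DMSO and 416, 408 and 393 CPM in fostamatinib. It fell by 21.9% (log2 fold change -0.36 ± 0.04, limma adjusted p = 2.42e-10). CCT4 had the smallest fall in this fit, within the error of CCT8, CCT7 and CCT2, from 392, 406 and 412 CPM to 344, 323 and 322 CPM (-0.29 ± 0.04, adjusted p = 4.57e-08). The largest was that of CCT5, from 439, 432 and 436 CPM to 326, 320 and 305 CPM (-0.46 ± 0.04, adjusted p = 6.85e-13).

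The other subunits lay between these ends, with log2 fold changes of -0.39 for CCT6A, -0.32 for CCT3, -0.31 for CCT2, -0.30 for CCT7 and -0.29 for CCT8. For none of the 8 subunits did the groups overlap. The 8 fold changes thus ran from -0.46 to -0.29, against -0.62 to 0.39 in the inducible class. CCT5, CCT6A and TCP1 were the subunits that passed the test against a 1.2-fold change. Of the CCT5 transcript 52.7% lies under an opposite-strand gene, and of TCP1 19.3% lies under ACAT2, which fell by 0.20.

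**Figure D4:**
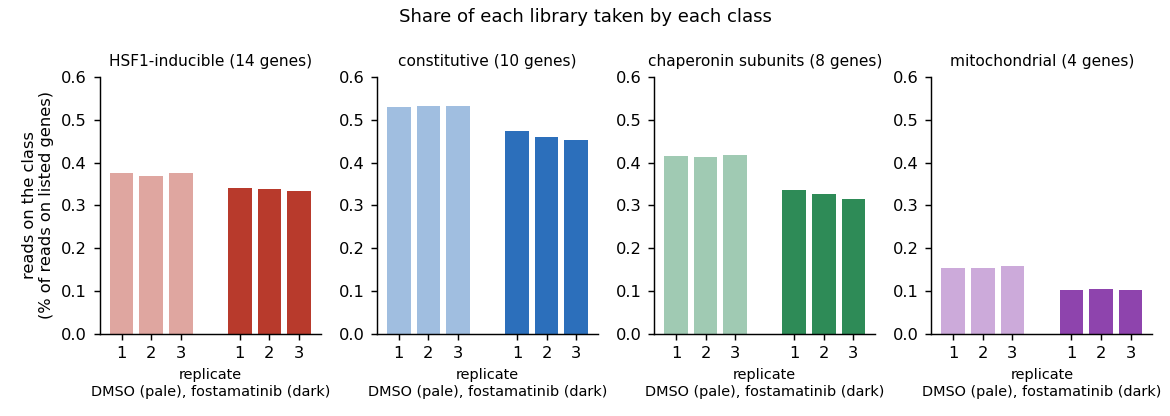
Share of the reads on listed genes (y axis, percent) taken by each class in each library, DMSO pale and fostamatinib dark. Every treated bar is below every control bar of its class, and the mitochondrial share goes from 0.154% or more to 0.104% or less.

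The mitochondrial chaperones formed the class with the largest median fall. HSPD1, the HSP60 chaperonin of the matrix and the member with the smallest adjusted p, had 884, 893 and 923.5 CPM in DMSO and 587, 590 and 585 CPM in fostamatinib. It fell by 34.8% (log2 fold change -0.62 ± 0.03, limma adjusted p = 1.65e-17). HSPE1, the HSP10 lid of the same machine, had 33.8, 35.5 and 37.3 CPM in DMSO and 23.6, 25.2 and 24.0 CPM in fostamatinib and fell by 31.8% (-0.55 ± 0.07, adjusted p = 3.54e-08). Neither gene overlapped between groups, and with HSPA9 and TRAP1 the 4 fold changes differed by less than 0.1 log2 units although the DMSO levels ranged from 35.5 to 900.3 CPM.

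HSPD1 and HSPE1 are transcribed away from each other on chromosome 2, with 104 bases between the RefSeq start of HSPE1 and the outermost RefSeq start of HSPD1. This stretch, chr2:197500275-197500378 on GRCh38.p14, is printed on the plus strand, which is the strand of HSPE1, because it lies between these starts.
HSPD1-HSPE1: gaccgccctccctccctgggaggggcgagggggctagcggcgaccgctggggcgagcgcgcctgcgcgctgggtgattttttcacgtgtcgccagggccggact
It holds no heat shock element, also with 1 mismatch allowed, and the exact matches of HSPD1 lay in the window of another of its starts, 245 and 240 bases before it. The values of both genes carry a counting limit. Of the 50-base stretches of HSPD1 27.1% occur in another gene, mostly the pseudogene HSPD1P1, whose own log2 fold change was -0.50, and of those of HSPE1 48.2%, including the read-through gene HSPE1-MOB4 and the pseudogene HSPE1P2 (-0.57). MOB4, the other end of the read-through, fell by 0.46. Without HSPD1 and HSPE1 the class has only HSPA9 (-0.55) and TRAP1 (-0.59). Its median of -0.57 could not move, because the genes left out had the lowest and the highest value of the class.

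Per kilobase of transcript, the levels of the members spanned from 1.93 CPM per kb for HSPA4L to 894 CPM per kb for HSPA8 in DMSO. Below HSPA8 came HSP90AB1 at 724.5, HSPD1 at 401.0 and HSP90AA1 at 392 CPM per kb. In fostamatinib HSP90AA1 stood at 361 and HSPD1 at 262 CPM per kb, so the order of their means changed, and HSPD1 also fell below CCT7 (272). In DMSO the samples of HSPD1 (394.0 to 411.4 CPM per kb) and HSP90AA1 (384.5 to 403.5) overlapped, so their order there was not clear. These levels use 1 canonical transcript per gene and were not corrected for sequence shared with other genes. HSPE1, at 63.8 CPM per kb in DMSO, was far below its partner HSPD1 on this scale.

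**Figure D5:**
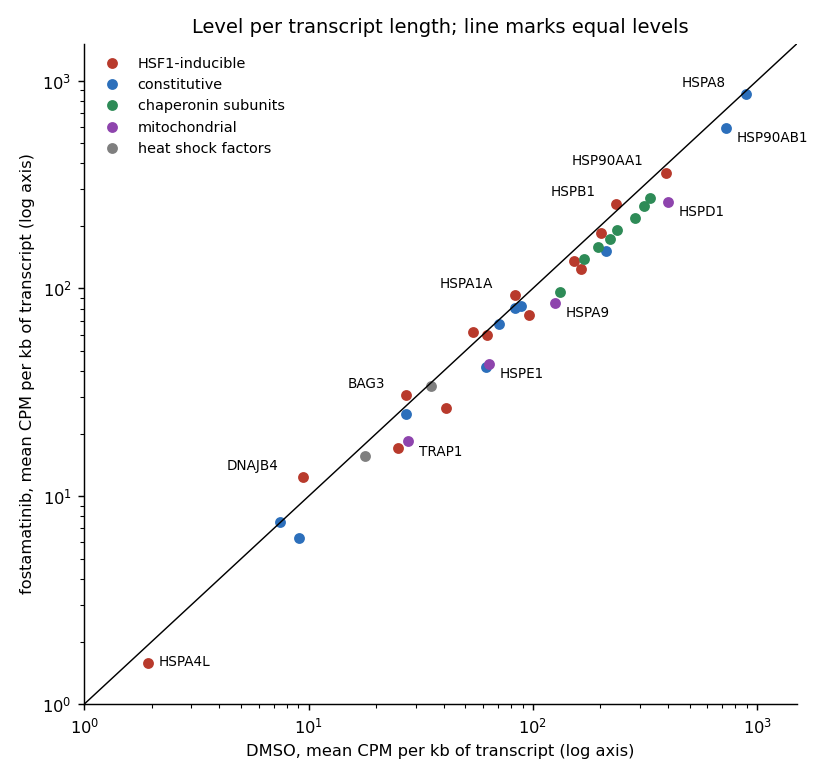
Mean level per kilobase of transcript in DMSO (x axis) and fostamatinib (y axis), in CPM per kb on log axes, for the 38 members coloured by class, with a line at equal levels. HSPA8 lies near the line at the top, the inducible genes lie on both sides of it, and the mitochondrial and chaperonin genes lie below it.

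Genes around these families, from 4 lists of known partners, were fitted in the same way. Among 15 other heat-shock-responsive and small heat shock genes, HSPA6, DNAJA4, HSPB2 and HSPB7 were not listed, and of the 11 tested 4 rose, 3 fell and 4 did not pass (median log2 fold change 0.10), where 23.3% of all genes rose and 24.5% fell, so the number that fell was near the background. CRYAB, a small heat shock protein, had the largest rise (1.29 ± 0.44, limma adjusted p = 0.0157), but on only 7, 7 and 3 reads in DMSO and 18, 13 and 9 reads in fostamatinib. The collagen chaperone SERPINH1 fell by 0.27, and HSPA2 rose by 0.32. No gene of this list with more than a few reads changed by over 0.5.

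Of 18 HSP70 and HSP90 co-chaperones outside the members, 5 rose, 8 fell and 5 did not pass (median -0.19). The number that rose was near the background of 23.3% of all genes, or 29.3% of those averaging 200 reads or more, and the falls compare with 24.5% and 33.8%. FKBP5, an HSP90 immunophilin and a close relative of FKBP4, had 9.62, 10.1 and 7.84 CPM in DMSO and 4.40, 4.88 and 4.34 CPM in fostamatinib (-1.01 ± 0.14, limma adjusted p = 1.90e-07). HSPA13, an atypical HSP70 of the secretory pathway, fell by 0.59. The 5 that rose were CDC37L1 (0.32), UNC45A (0.29), STUB1 (0.27), BAG6 (0.27) and ST13 (0.10). Of 10 prefoldin and chaperonin helper genes, of which the prefoldin subunits hand actin and tubulin to the ring, 1 rose, 7 fell and 2 did not pass (median -0.23). The falls compare with the same 24.5% and 33.8% lower in the background. Among them was PFDN2 at 44.2 to 49.9 CPM in DMSO and 28.4 to 31.2 CPM with drug (-0.66 ± 0.07). PFDN5 was the gene of this list that rose, by 0.20.

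Of 10 mitochondrial chaperone partners and proteases, 6 fell, none rose and 4 did not pass (median -0.14), against 24.5% lower over all genes and 33.8% among those averaging 200 reads or more. GRPEL2, an exchange factor of HSPA9, had 25.9, 23.5 and 29.9 CPM in DMSO and 12.5, 13.4 and 12.0 CPM with drug (-1.06 ± 0.09, limma adjusted p = 4.52e-12). Its paralogue GRPEL1, which was expressed at a higher level, fell by only 0.15. DNAJA3, the J-domain partner of HSPA9, fell by 0.59 and the matrix protease LONP1 by 0.52, whereas CLPP (-0.04) and HSCB (0.09) did not pass.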

How the data were processed

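The authors mapped poly(A) RNA-seq reads of 6 samples with HISAT (genome hg19), obtained gene counts by featureCounts on GENCODE annotation, removed genes with few reads and scaled by TMM. The deposited values are log2 CPM, with 0.5 added to each count. Reads were recovered as whole numbers from them (100.0% of values within 0.05 of a whole number). Multi-mapping and strand settings of the counting are not given in the sources used here.

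The deposited log2 values of 16305 genes were fitted with limma 3.58.1 (R 4.3.3, mean-variance trend, 4 residual degrees of freedom), and p-values were adjusted by Benjamini-Hochberg over all of them. Because limma borrows variance across genes, the p-values rest on more degrees of freedom than these samples give, with a median of 33.9. The test was checked on simulated data. Members and lists were chosen with earlier results of these data known. Values in every sample are given for the factors, the HSP70, HSP90, HSP60 and HSP10 forms, TCP1, the main inducible genes, the 5 largest rises and falls and the extreme chaperonin subunits, and partner genes are named where they passed the test and changed by over 0.5 log2, with others named after their values were seen. Gene positions and transcript lengths are from GENCODE v44 lifted to GRCh37, motif positions from RefSeq. Alternatives were voom, no trend, other scaling, filters, a replicate block, leaving out each sample, and treat.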

Additional observations from a re-analysis of the deposited data

How the results depend on the processing

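Over 13 alternative settings for each member (494 values in all), 477 kept their side of the threshold and 17 were no longer past it. No called member changed sign. BAG1, which was not called, changed sign from 0.01 to values between -0.0038 and -0.05 with library size alone and without DMSO replicate 3 or fostamatinib replicate 2. HSPA1A, HSP90AA1 and DNAJA1 lost the call only without a mean-variance trend (adjusted p = 0.0707, 0.0812 and 0.0603 by limma), and HSPB1, DNAJA2, DNAJB6 and HSF2 also when single samples were left out. Without the trend 25 members were called, and the smallest p-values grew by many orders. For HSPD1 and HSPA9 the limma adjusted p was then 0.00056 and 0.00074. Past a 1.2-fold change were 14 members, 4 inducible, 3 constitutive, 3 chaperonin and 4 mitochondrial genes. The narrow core of 8 inducible genes held 7 called genes and its median turned from -0.13 to 0.037. Without HSPD1 and HSPE1, 2 mitochondrial genes remained to be called. With 1 mismatch, added after the data had been seen, the motif was in 18 members. With a replicate block 32 members and 7977 genes were called (7794 without). The values showed no pairing by replicate number, which 3 samples per group cannot settle. Deviations of same-numbered samples correlated at 0.034, -0.044 and 0.041, below 0.088 for DMSO replicate 2 with fostamatinib replicate 1. Other scaling moved the median of all genes by 0.0037 or -0.0111 log2. Depth limits CRYAB, while every member had a mean of at least 264.5 reads.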
